A study of Mus musculus with 9 samples.

Results

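The enzymes described here are 10 genes of serine, glycine and one-carbon metabolism, a list set by name: Phgdh, Psat1, Psph, Shmt1, Shmt2, Gcsh, Gldc, Mthfd1, Mthfd1l and Mthfd2. They are 10 of 52408 genes obtained by summing the deposited transcript values per gene, and 9 of them are among the 11950 genes tested, which reached 1 TPM in 3 or more libraries. The exception is Gldc, which stayed under 0.2 TPM in every library. The samples are 9 RNA libraries of MIN6, a mouse insulinoma line grown as a stand-in for pancreatic beta cells, with 3 libraries in each of 3 groups. One group overexpressed the orphan nuclear receptor Nr4a1 and was treated with EGCG, a catechin of green tea (OE + EGCG). Another overexpressed Nr4a1 without EGCG (OE), and the third was untransfected cells (control). The transfection itself is therefore part of any difference from control, and all libraries carry a single batch label. Nr4a1 was at 46.25, 60.91 and 54.46 TPM in OE + EGCG, 128.3, 122.52 and 165.18 TPM in OE, and 0.63, 0.78 and 0.76 TPM in control, so OE + EGCG differed from OE in Nr4a1 transcript as well as in the compound.

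TPM is a transcript's length-corrected share of its library, so a value can move because other RNAs moved. It keeps no read depth, which is therefore unknown, and counting intervals cannot be given. Protein-coding genes of the nucleus held between 20.3% and 20.7% of the TPM in OE + EGCG libraries, between 22.6% and 23.1% in OE libraries, and between 21.2% and 21.7% in control libraries. Of 9 beta cell markers 8 averaged at least 1 TPM over all libraries, and Ucn3, a marker of mature beta cells, did not. Markers of stroma, endothelium, macrophages and lymphocytes each summed to at most 1.0 TPM in any library, and markers of delta and PP cells to at most 0.19 TPM. The 4 acinar markers summed to between 4.69 and 5.12 TPM in OE + EGCG, 3.76 and 4.64 TPM in OE, and 3.9 and 5.34 TPM in control, nearly all of it Cela1, with Prss2 listed at 0. The other lists moved with the groups. Alpha cell markers, nearly all Gcg, summed to between 293.3 and 325.8 TPM in OE + EGCG, 729.0 and 810.2 TPM in OE, and 318.7 and 335.4 TPM in control, while Irx1 stayed under 1 TPM. Duct markers, nearly all Spp1, summed to between 29.14 and 29.42 TPM in OE + EGCG, 69.24 and 73.44 TPM in OE, and 20.38 and 23.03 TPM in control. Beta cell markers, mostly Iapp and Ins1, summed to between 3991 and 4328 TPM in OE + EGCG, 5765 and 6050 TPM in OE, and 3721 and 3878 TPM in control. The members of that list did not all move alike. Mafa averaged 38.7 TPM in OE and 62.9 TPM in control, and Slc2a2 and Ucn3 also had lower means in OE than in control. Ins1, Iapp, Pdx1, Nkx6-1, Slc30a8 and G6pc2 had higher means in OE. The list was also mixed between OE + EGCG and control. Mafa averaged 33.3 TPM in OE + EGCG, Pdx1 33.7 against 42.4 TPM in control, and Nkx6-1 2.46 against 4.73 TPM. Ins1 and Ucn3 also had lower means in OE + EGCG than in control. Slc2a2 averaged 3.14 TPM in OE + EGCG and 1.07 TPM in control, and Iapp, Slc30a8 and G6pc2 also had higher means in OE + EGCG. The part of these shifts in the results that follow was not tested. Changes are given as differences of mean log2(TPM + 1) with the SE of limma, two-sided, with Benjamini-Hochberg adjustment over all 11950 tested genes, and a gene is called at an adjusted p under 0.05. In bulk RNA a change in a fraction of the cells and a change in every cell cannot be told apart. Nothing in the labels says that the libraries of a group came from separate cultures, so the p-values speak of the spread among the libraries sequenced, which may be technical.

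Serine is made from the glycolytic intermediate phosphoglycerate in a short chain: Phgdh (phosphoglycerate dehydrogenase) oxidises it, Psat1 (phosphoserine aminotransferase) adds the amino group, and Psph (phosphoserine phosphatase) releases serine. Shmt2 in mitochondria and Shmt1 in the cytosol then turn serine into glycine and load its side-chain carbon on tetrahydrofolate, the folate cofactor that carries such carbon units. Glycine can be split by the mitochondrial glycine cleavage system, in which Gldc is the decarboxylase and Gcsh the small lipoyl-carrying protein that shuttles the intermediate. In mitochondria Mthfd2 oxidises the folate-bound carbon and Mthfd1l releases it as formate. Mthfd1 reloads formate on folate in the cytosol, where it serves the synthesis of purines, thymidylate and methionine.

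Promoter sequences of 4 of these genes are shown because the genes moved by different amounts: Gcsh and Psph, with the greatest increases in OE, Phgdh, which opens the serine chain, and Mthfd1l, which was not called. Each window runs from 250 bases before to 50 bases after the RefSeq start site in the GRCm38.p6 build, 5′ to 3′ on the gene's strand, and capitals mark ACGTG, the core of the hypoxia element, on either strand. The deposited values were made on GRCm39, so these coordinates belong to the older build alone. The windows are chr8:116993449-116993748 (minus strand) for Gcsh, chr5:129787204-129787503 (minus) for Psph, chr3:98339920-98340219 (minus) for Phgdh and chr10:3972825-3973124 (plus) for Mthfd1l.
Gcsh: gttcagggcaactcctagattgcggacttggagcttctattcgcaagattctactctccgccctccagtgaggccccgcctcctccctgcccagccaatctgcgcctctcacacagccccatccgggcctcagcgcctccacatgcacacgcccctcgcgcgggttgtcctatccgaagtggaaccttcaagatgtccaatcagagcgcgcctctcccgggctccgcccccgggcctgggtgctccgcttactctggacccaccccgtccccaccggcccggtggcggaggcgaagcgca
Psph: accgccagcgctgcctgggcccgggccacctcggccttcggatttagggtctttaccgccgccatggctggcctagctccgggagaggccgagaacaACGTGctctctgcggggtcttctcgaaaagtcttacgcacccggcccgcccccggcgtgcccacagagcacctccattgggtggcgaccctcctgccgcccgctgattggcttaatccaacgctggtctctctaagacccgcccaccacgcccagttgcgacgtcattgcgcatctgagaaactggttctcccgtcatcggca
Phgdh: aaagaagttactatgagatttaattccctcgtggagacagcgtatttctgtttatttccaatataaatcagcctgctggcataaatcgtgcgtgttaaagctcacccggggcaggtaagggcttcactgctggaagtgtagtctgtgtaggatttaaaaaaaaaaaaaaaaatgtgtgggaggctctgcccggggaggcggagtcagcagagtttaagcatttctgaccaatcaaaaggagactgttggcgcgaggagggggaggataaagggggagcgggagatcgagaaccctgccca
Mthfd1l: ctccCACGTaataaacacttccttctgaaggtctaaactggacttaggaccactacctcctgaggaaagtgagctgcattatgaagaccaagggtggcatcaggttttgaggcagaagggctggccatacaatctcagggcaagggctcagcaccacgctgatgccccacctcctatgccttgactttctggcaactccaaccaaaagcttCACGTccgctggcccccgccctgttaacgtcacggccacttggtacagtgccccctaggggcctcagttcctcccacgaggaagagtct

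All 10 genes matched the RefSeq promoter table, with 11 windows in all because Psat1 has 2. 4 motifs were searched on both strands. AAAGGTCA, the NBRE bound by receptors of the Nr4a family, was in 0 of the 11 windows, against 1.51% of all 32851 promoter windows. TGATGNAA, the composite element of C/EBP and ATF factors, was in 0 of 11 against 3.97%, and the E-box CACGTG in 0 of 11 against 7.15%. ACGTG, which every E-box contains, was in 3 of 11 against 19.6% of all windows. Counted from the start site, it lay at position -153 in Psph, at -246 and -39 in Mthfd1l, and at 5 in the second window of Psat1. No match says only that these letters are not in these windows. The GC content of the shown windows was 66.3% for Gcsh, 65.0% for Psph, 47.7% for Phgdh and 55.3% for Mthfd1l. By the annotation the most abundant transcript starts at position -39 from the RefSeq start site in Gcsh, -196 in Psph, -21 in Phgdh and 43 in Mthfd1l. That of Psat1 starts at the start site of its first window, which is at -437 from that of its second. The ACGTG matches in Psph and in the second window of Psat1 thus lie downstream of these transcript starts.

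Nr4a1 overexpression was first set against untransfected control cells. All 3 enzymes of serine synthesis, both serine hydroxymethyltransferases, Gcsh, Mthfd1 and Mthfd2 were higher in OE, by 0.37 to 1.71 on the log2 scale, while Mthfd1l was not called. Thus 8 of the 9 tested members rose and none fell, where 38.2% of all tested genes rose and 21.3% fell. The median difference of the 9 was 0.58, beside 0.095 over all tested genes. All 9 had at least 7 TPM in each library, so none passed the filter through a single group. The groups did not overlap for any of the 10 genes: 8 were higher in every OE library and 2, Gldc and Mthfd1l, lower in every OE library, where 41.3% and 23.6% of tested genes did so. The summed TPM of the 10 genes was 512.2, 514.6 and 519.2 in OE, against 301.6, 313.7 and 324.6 in control.

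**Figure D1:**
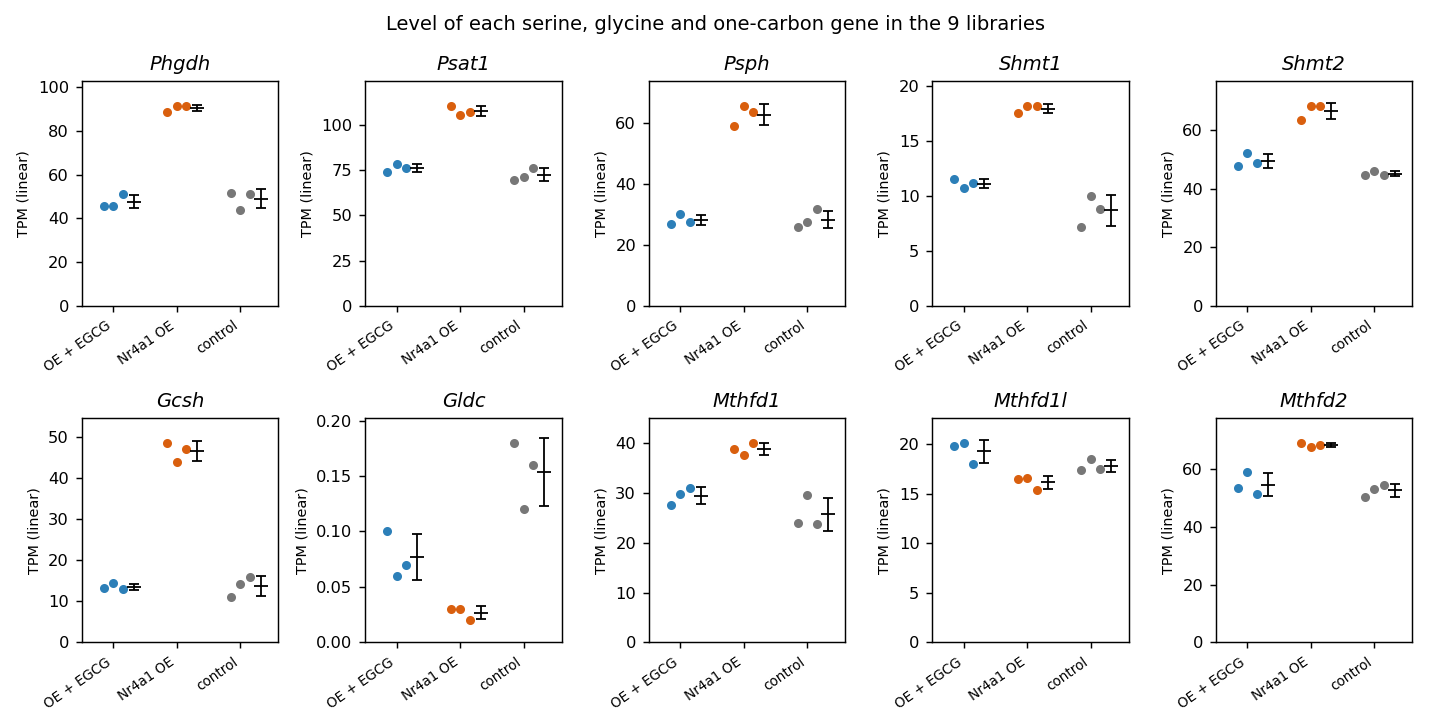
TPM of each of the 10 genes (linear axis from 0, a separate scale for each gene) in OE + EGCG, Nr4a1 OE and control; coloured points are single libraries, and the bar beside them is the mean ± SD of 3. In 8 panels the OE points lie above both other groups, for Gcsh at 43.89 to 48.67 TPM against at most 15.89 elsewhere, while Mthfd1l is lowest in OE and Gldc stays under 0.2 TPM.

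In the serine chain, Phgdh was at 88.72, 91.44 and 91.48 TPM in OE, against 51.7, 43.86 and 51.33 TPM in control. Every OE library was above every control library, 1.85-fold by means (0.88 ± 0.073 SE; limma, adjusted p = 1.38e-05). Psat1, which was the most abundant of the 10 in every group, was at 110.48, 105.55 and 107.07 TPM in OE and 69.54, 71.23 and 76.35 TPM in control. Its rise was 1.49-fold (0.57 ± 0.052 SE; limma, adjusted p = 2.33e-05). Psph, the last step, was at 58.85, 65.41 and 63.44 TPM in OE and 25.88, 27.3 and 31.52 TPM in control. That was 2.22-fold higher in OE (1.12 ± 0.0806 SE; limma, adjusted p = 6.14e-06), the greatest rise in the chain. Psph overlaps Cct6a, a chaperonin subunit gene on the opposite strand, at their 5′ ends in the annotation. Cct6a averaged 85.9 ± 2.65 TPM in OE and 52.9 ± 2.4 TPM in control (SD, n = 3 each). The strand setting of the counting is not given in the sources used here, so the part of Cct6a in the Psph values was not tested.

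The hydroxymethyltransferases split serine in different compartments. Shmt2, the mitochondrial enzyme, was at 63.54, 68.33 and 68.25 TPM in OE and 44.64, 46.09 and 44.73 TPM in control (1.48-fold; 0.55 ± 0.0533 SE; limma, adjusted p = 3.12e-05). Shmt1, the cytosolic enzyme, was at 17.47, 18.14 and 18.11 TPM in OE and 7.19, 9.98 and 8.78 TPM in control (2.07-fold; 0.98 ± 0.0939 SE; limma, adjusted p = 2.99e-05). Both thus rose with no overlap of the groups, and Shmt1 remained the less abundant of the pair in each library. The ratio of Shmt2 to Shmt1 within a library, which does not depend on how TPM is scaled, was 3.64, 3.77 and 3.77 in OE, against 6.21, 4.62 and 5.09 in control. With protein-coding transcripts alone the rise of Shmt1 was 0.64 in place of 0.98, and the difference of the log2 ratio was -0.23 in place of -0.50.

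The glycine cleavage genes stood furthest apart. Gcsh was at 48.67, 43.89 and 47.16 TPM in OE and 11.05, 14.17 and 15.89 TPM in control. This 3.4-fold rise (1.71 ± 0.111 SE; limma, adjusted p = 3.67e-06) ranked 71 among 11950 tested genes by log2 difference. Gldc, the decarboxylase that Gcsh serves in glycine cleavage, was at 0.03, 0.03 and 0.02 TPM in OE and 0.18, 0.12 and 0.16 TPM in control. It was not tested, being under 1 TPM throughout. Its transcript labelled as an intron-retaining form, Gldc-203, held 62.5% of these values in OE and 80.4% in control, and the protein-coding form Gldc-201 was at no more than 0.04 TPM in any library. The low signal over genes that MIN6 cells are not known to use moved in the same sense. The 1480 protein-coding olfactory, vomeronasal and trace amine receptor genes averaged 0.00319, 0.00286 and 0.00308 TPM a gene in OE, against 0.0728, 0.062 and 0.0338 in control. Whether the Gldc difference is part of that signal was not tested.

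The folate enzymes moved unequally. Mthfd1, the cytosolic enzyme with several activities, was at 38.82, 37.51 and 40.04 TPM in OE and 23.86, 29.56 and 23.78 TPM in control (1.51-fold; 0.58 ± 0.0848 SE; limma, adjusted p = 0.000363). Mthfd2, the mitochondrial dehydrogenase and cyclohydrolase, was at 69.07, 67.68 and 68.19 TPM in OE and 50.19, 52.96 and 54.53 TPM in control, the smallest rise among the called members (1.3-fold; 0.37 ± 0.0601 SE; limma, adjusted p = 0.000638). Mthfd1l, the mitochondrial synthetase that releases formate, was at 16.54, 16.59 and 15.42 TPM in OE and 17.37, 18.47 and 17.54 TPM in control. Each OE library was below each control library, but the difference of -0.13 ± 0.058 (SE) was not called (limma, adjusted p = 0.0813). With median-ratio scaling, quantile normalization or TPM rescaled over nuclear protein-coding genes, Mthfd1l was called lower in OE, at -0.24, -0.28 and -0.22. The ratio of Mthfd1l to Mthfd1, free of that scaling, was 0.426, 0.442 and 0.385 in OE, against 0.728, 0.625 and 0.738 in control, and that of Mthfd2 to Mthfd1l was 4.18, 4.08 and 4.42 in OE against 2.89, 2.87 and 3.11 in control.

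**Figure D2:**
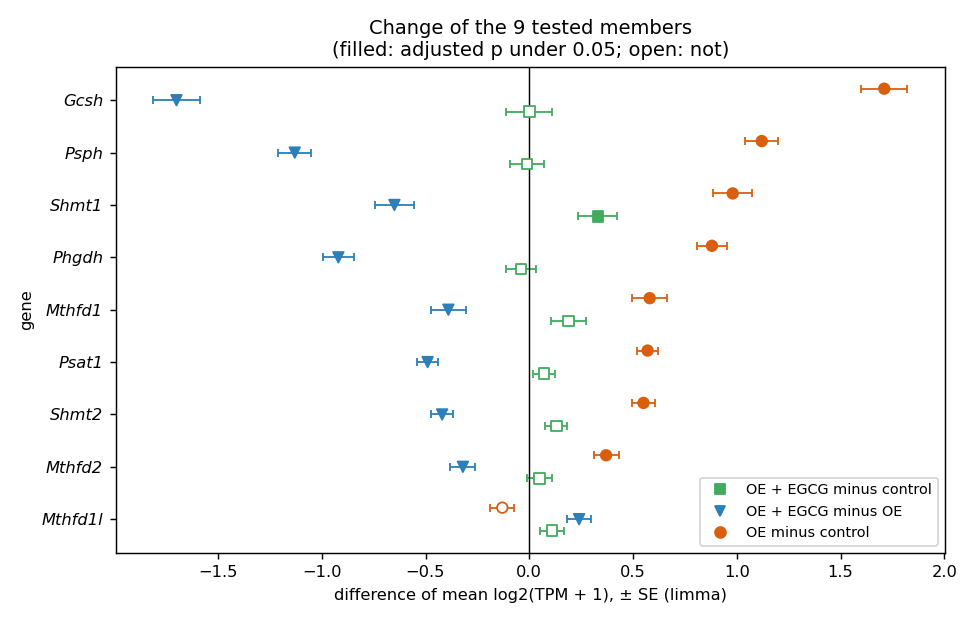
Difference of mean log2(TPM + 1) for the 9 tested members (x axis, ± SE of limma) in the 3 comparisons, which share libraries; filled symbols have an adjusted p under 0.05. Gcsh lies outermost, at 1.71 for OE minus control and -1.70 for OE + EGCG minus OE, and Mthfd1l lies on the other side of 0 in both.

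EGCG was then compared with no EGCG in cells that overexpressed Nr4a1. The members that were high in OE were lower in OE + EGCG: 8 of 9 fell and 1, Mthfd1l, rose, where 34.1% of all tested genes fell and 18.8% rose. The median difference was -0.49, beside -0.088 over all tested genes. No member overlapped between these groups. The 8 that fell were lower in every OE + EGCG library, and Gldc and Mthfd1l were higher in every OE + EGCG library, where 41.4% of tested genes were lower and 23.2% higher without overlap. This comparison uses the same OE libraries as the first, so the opposite signs are not separate evidence.

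Phgdh was at 45.78, 45.86 and 51.02 TPM in OE + EGCG, against 90.5 ± 1.58 TPM in OE (SD, n = 3), and fell by 0.92 ± 0.073 (SE; limma, adjusted p = 1.61e-05). Psph fell further, to 26.8, 30.1 and 27.3 TPM in OE + EGCG, against 62.6 ± 3.37 TPM in OE (-1.13 ± 0.0806 SE; limma, adjusted p = 8.95e-06). Psat1 was at 74.15, 78.25 and 76.13 TPM in OE + EGCG, against 107.7 ± 2.52 TPM in OE, a smaller change of -0.49 ± 0.052 (SE; limma, adjusted p = 7.18e-05). All 3 serine synthesis genes therefore passed the test in the same direction. The aminotransferase changed least of the chain here as well as against control, and the ratio of Psat1 to Phgdh was 1.62, 1.71 and 1.49 in OE + EGCG, against 1.25, 1.15 and 1.17 in OE.

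Gcsh was at 13.3, 14.46 and 13.09 TPM in OE + EGCG, against 46.6 ± 2.44 TPM in OE (SD, n = 3). This was 0.292 of the OE level (-1.70 ± 0.111 SE; limma, adjusted p = 5.35e-06). Shmt1 was at 11.48, 10.65 and 11.11 TPM in OE + EGCG, against 17.9 ± 0.378 TPM in OE (-0.65 ± 0.0939 SE; limma, adjusted p = 0.000462). Shmt2 was at 47.7, 52.31 and 48.86 TPM in OE + EGCG, against 66.7 ± 2.74 TPM in OE (-0.42 ± 0.0533 SE; limma, adjusted p = 0.000209). Both compartments' hydroxymethyltransferases thus fell. Gldc, still close to 0, was at 0.1, 0.06 and 0.07 TPM in OE + EGCG, against 0.03, 0.03 and 0.02 TPM in OE. The chemoreceptor genes averaged 0.00599, 0.00531 and 0.00797 TPM a gene in OE + EGCG, above the OE libraries too.

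Among the folate enzymes, Mthfd1 was at 27.64, 29.7 and 30.93 TPM in OE + EGCG, against 38.8 ± 1.27 TPM in OE (-0.39 ± 0.0848 SE; limma, adjusted p = 0.00432). Mthfd2 was at 53.33, 58.99 and 51.44 TPM in OE + EGCG, against 68.3 ± 0.703 TPM in OE (-0.32 ± 0.0601 SE; limma, adjusted p = 0.00189). With quantile normalization both kept their sign but were no longer called, Mthfd1 at -0.19 (limma, adjusted p = 0.0662) and Mthfd2 at -0.11 (limma, adjusted p = 0.153). Mthfd1l was at 19.78, 20.16 and 18.0 TPM in OE + EGCG, against 16.2 ± 0.662 TPM in OE (0.24 ± 0.058 SE; limma, adjusted p = 0.0071). It was the sole member that rose, and the call held in all 20 alternatives, between 0.21 and 0.40. The ratio of Mthfd1l to Mthfd1 was 0.716, 0.679 and 0.582 in OE + EGCG, above 0.385 to 0.442 in OE.

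**Figure D3:**
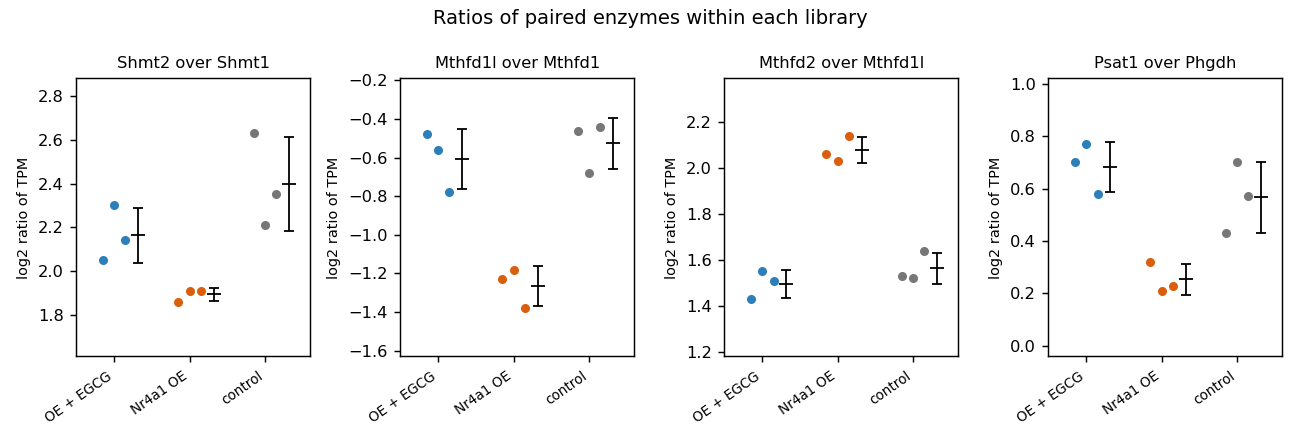
Log2 ratio of TPM of paired enzymes within each library (y axis, a separate range for each panel that does not start at 0) in OE + EGCG, Nr4a1 OE and control; points are libraries and bars the mean ± SD of 3. In each panel the OE libraries lie apart from the other groups, for Mthfd1l over Mthfd1 at -1.38 to -1.18 against -0.78 to -0.44.

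Set against control, OE + EGCG differed little in these genes. Of the 9 tested members 1, Shmt1, was called higher and none lower, where 11.1% of all tested genes were higher and 7.1% lower. The median difference was 0.07, beside 0.021 over all tested genes. The groups overlapped for 7 of the 10 genes. Shmt1 and Shmt2 were higher in every OE + EGCG library and Gldc lower in every one, where 21.0% and 13.8% of tested genes were so. Gcsh averaged 13.6 ± 0.738 TPM in OE + EGCG and 13.7 ± 2.45 TPM in control (SD, n = 3 each), with a log2 difference of 0.00 ± 0.111 (SE). Psph averaged 28.1 ± 1.78 and Phgdh 47.6 ± 3.0 TPM in OE + EGCG, against 28.2 ± 2.93 and 49.0 ± 4.42 TPM in control. A difference that misses the threshold is not shown to be absent, and the SE of 0.052 to 0.111 sets what could be seen.

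Shmt1 averaged 11.1 ± 0.416 TPM in OE + EGCG and 8.65 ± 1.4 TPM in control (SD, n = 3 each; 0.33 ± 0.0939 SE; limma, adjusted p = 0.0398). The call held in 9 of 20 alternatives, with adjusted p between 0.0122 and 0.902. It ended without control replicate 1, without any single OE library and without any single OE + EGCG library. With protein-coding transcripts alone the difference was -0.01 ± 0.0673 (SE). Shmt2 averaged 49.6 ± 2.4 TPM in OE + EGCG and 45.2 ± 0.812 TPM in control and was not called (0.13 ± 0.0533 SE; limma, adjusted p = 0.113). Mthfd1 averaged 29.4 ± 1.66 TPM in OE + EGCG and 25.7 ± 3.31 TPM in control (0.19 ± 0.0848 SE; limma, adjusted p = 0.14). Without control replicate 2, whose Mthfd1 level of 29.56 TPM was above the other controls, it was called at 0.29 (limma, adjusted p = 0.0331).

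The order of the genes by level differed between groups. In OE + EGCG it was Psat1, Mthfd2, Shmt2, Phgdh, Mthfd1, Psph, Mthfd1l, Gcsh, Shmt1 and Gldc. In OE it was Psat1, Phgdh, Mthfd2, Shmt2, Psph, Gcsh, Mthfd1, Shmt1, Mthfd1l and Gldc, with Phgdh and Gcsh placed higher than in the other groups and Mthfd1l below Shmt1. The control order was Psat1, Mthfd2, Phgdh, Shmt2, Psph, Mthfd1, Mthfd1l, Gcsh, Shmt1 and Gldc. Neighbours whose libraries overlapped were Mthfd2 with Shmt2, Shmt2 with Phgdh and Mthfd1 with Psph in OE + EGCG, Mthfd2 with Shmt2 and Shmt2 with Psph in OE, and Mthfd2 with Phgdh, Phgdh with Shmt2 and Psph with Mthfd1 in control. The spread between libraries differed by group, with a coefficient of variation over the 9 tested genes from 2.69% to 7.20% in OE + EGCG and 1.03% to 5.38% in OE, against 1.80% to 17.9% in control.

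The table is per transcript, and the most abundant form in control made up most of the rise in OE for 7 of the 8 genes that rose, the exception being Shmt1. The reads were divided between overlapping forms by estimation, so the split is less certain than the sum, and no test was run on it. Gcsh has a single protein-coding form, Gcsh-201, with 99.8% of its TPM in OE and all of it in control. Phgdh-201, the longer form at 1893 bases, was at 86.26, 84.34 and 85.11 TPM in OE and 29.01, 31.53 and 38.24 TPM in control. The short protein-coding form Phgdh-202, of 446 bases, went the other way, at 0.0, 4.09 and 3.75 TPM in OE and 22.17, 11.59 and 11.61 TPM in control. Phgdh-201 thus held 94.1% of the gene in OE and 67.2% in control. With EGCG, Phgdh-201 was at 40.16, 40.93 and 38.47 TPM and Phgdh-202 at 4.31, 4.08 and 10.85 TPM, and the longer form held 83.8%.

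Psat1-201 was at 88.51, 89.06 and 87.15 TPM in OE and 49.68, 49.17 and 55.19 TPM in control, while Psat1-205, another coding form, averaged 14.8 ± 2.7 TPM in OE and 17.3 ± 1.39 TPM in control (SD, n = 3 each). The rise of Psat1 thus sat mainly in its most abundant form. Shmt2-201 averaged 49.0 ± 2.36 TPM in OE and 33.9 ± 0.726 TPM in control, and Shmt2-206 averaged 8.88 ± 0.433 TPM in OE and 7.47 ± 0.441 TPM in control. Shmt1 was divided among many forms, with those other than protein-coding ones holding 46.4% of its TPM in OE + EGCG, 44.8% in OE and 29.4% in control. Its coding form Shmt1-201 averaged 5.8 ± 0.38 TPM in OE + EGCG, 9.77 ± 0.521 TPM in OE and 5.74 ± 0.263 TPM in control. The processed transcript Shmt1-208 was at 2.17, 2.92 and 0.95 TPM in OE + EGCG and 5.34, 4.02 and 3.99 TPM in OE, and was listed at 0 in all control libraries. With protein-coding transcripts alone, the 8 members were still called higher in OE than in control and lower in OE + EGCG than in OE, and Mthfd1l was again the sole one called higher in OE + EGCG.

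**Figure D4:**
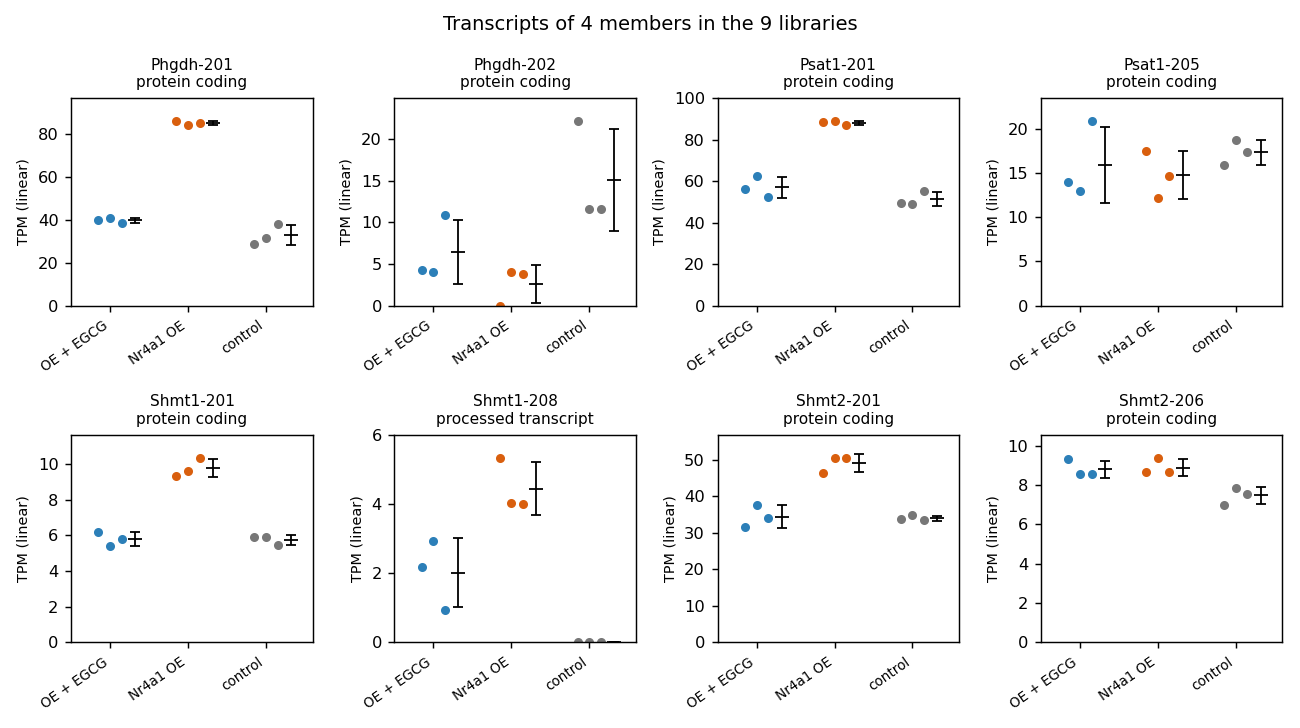
TPM of 8 transcripts of Phgdh, Psat1, Shmt1 and Shmt2 (linear axis from 0, a separate scale for each) in OE + EGCG, Nr4a1 OE and control; points are libraries and bars the mean ± SD of 3. Phgdh-201, Psat1-201, Shmt1-201 and Shmt2-201 are highest in OE, Phgdh-202 is highest in control, and Shmt1-208 is listed at 0 in control.

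Genes around the pathway were read from lists fixed by name, and their counts are descriptions beside the shares of all tested genes given above. Of 15 genes of serine transport and use 13 were tested. In OE against control 7 rose and 1 fell (median 0.29), and in OE + EGCG against OE 1 rose and 7 fell (median -0.21). The amino acid transporter Slc38a2 averaged 31.2 ± 2.17 TPM in OE + EGCG, 47.8 ± 1.06 TPM in OE and 31 ± 1.25 TPM in control (SD, n = 3 each). Serinc1, a membrane protein linked to serine incorporation into lipids, averaged 56.9 ± 1.83 TPM in OE + EGCG, 82.6 ± 2.51 TPM in OE and 57.0 ± 3.23 TPM in control. The sideroflexin Sfxn2, of a family of mitochondrial carriers, averaged 1.3 ± 0.103 TPM in OE + EGCG, 2.79 ± 0.305 TPM in OE and 0.967 ± 0.122 TPM in control. Srr, serine racemase, moved the other way, at 8.43 ± 0.679 TPM in OE + EGCG, 5.64 ± 0.654 TPM in OE and 9.65 ± 0.803 TPM in control. Sfxn1 and Sfxn3, of the same family as Sfxn2 and named after their values were seen, were not called in any comparison. The more abundant Sfxn1 averaged 19.1 ± 1.06 TPM in OE + EGCG, 19.6 ± 0.718 TPM in OE and 18.7 ± 0.414 TPM in control. Against control, OE + EGCG had 0 higher and 1 lower, Sptlc2 at -0.27, which was singled out after its values were seen and was not called without control replicate 1 or without OE + EGCG replicate 1 or 2.

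Of 7 partners of glycine cleavage and its lipoyl cofactor, 5 were tested. Amt and Tdh were not, because they did not reach 1 TPM in 3 or more libraries. Dld, the dehydrogenase subunit that the glycine cleavage system shares with pyruvate dehydrogenase, averaged 18.1 ± 1.65 TPM in OE + EGCG, 27.9 ± 2.19 TPM in OE and 19.2 ± 1.55 TPM in control (SD, n = 3 each). Gcat, which makes glycine from a product of threonine, averaged 14.6 ± 1.94 TPM in OE + EGCG, 24.2 ± 0.924 TPM in OE and 9.23 ± 0.664 TPM in control. Both rose in OE against control, by 0.52 and 1.30, and both fell in OE + EGCG against OE, by 0.60 and 0.70, and none of the others was called, although 1 was called lower in OE under median-ratio scaling, over nuclear protein-coding genes and without OE replicate 1. Gcat alone was called in OE + EGCG against control (0.60 ± 0.0915 SE; limma, adjusted p = 0.00524). The list's median in OE against control was 0.06, but -0.04 under both median-ratio scaling and quantile normalization, -0.01 over nuclear protein-coding genes and -0.02 without control replicate 2.

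Of 18 other folate enzymes and carriers 14 were tested, and 7 rose and 1 fell in OE against control (median 0.21). Thymidylate synthase (Tyms), which spends folate carbon on thymidylate, averaged 29.7 ± 1.47 TPM in OE + EGCG, 62.9 ± 1.82 TPM in OE and 26.1 ± 0.947 TPM in control (SD, n = 3 each). Folr1, a folate receptor, averaged 32 ± 2.78 TPM in OE + EGCG, 49.1 ± 3.81 TPM in OE and 21.7 ± 1.8 TPM in control. Fpgs, which adds the glutamate tail that keeps folate in the cell, averaged 2.38 ± 0.169 TPM in OE + EGCG, 4.13 ± 0.101 TPM in OE and 2.11 ± 0.142 TPM in control. The gene that fell in OE was Mtfmt (-0.28), which formylates the initiator methionyl-tRNA of mitochondria, named after its value was seen, and no gene of the list was called lower without control replicate 1 or without any single OE library. With protein-coding transcripts alone the rise of Tyms was 0.73 in place of 1.24. In OE + EGCG against OE 7 fell and 1 rose (median -0.19), and 4 fell and 2 rose under median-ratio scaling and over nuclear protein-coding genes. The gene that rose was the folate carrier Slc19a1, at 0.40, named after its value was seen. Against control 3 were higher in OE + EGCG, namely Tyms at 0.18, Folr1 at 0.54 and, named after its value was seen, Sardh at 0.33, and none was lower. Folr1 held in all 20 alternatives, but Tyms in 7, and it was -0.16 with protein-coding transcripts alone. The 3 became 1 without control replicate 1 or 2, without OE replicate 3 and without any single OE + EGCG library.

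Next came the pathways that receive the carbon. Of 12 genes of purine and thymidylate synthesis, all tested, 10 rose and 1 fell in OE against control (median 0.47), and 1 rose and 10 fell in OE + EGCG against OE (median -0.38). Gart and Pfas, enzymes of purine ring assembly, averaged 15.5 ± 0.862 and 7.86 ± 0.469 TPM in OE + EGCG, 21.9 ± 0.762 and 10.9 ± 0.592 TPM in OE, and 12.6 ± 1.05 and 6.48 ± 0.118 TPM in control (SD, n = 3 each). Adsl, which acts later in the same route, averaged 7.82 ± 0.323 TPM in OE + EGCG, 14.8 ± 0.127 TPM in OE and 7.51 ± 0.341 TPM in control. Tyms, above, is counted in both lists. The gene that went the other way in both was Prps2, at -0.42 and 0.14, named after its values were seen. Its rise in OE + EGCG was not called on leaving out any single library other than control replicate 3. Of 13 tested genes of the methionine cycle and transsulfuration, from a list of 15, 10 rose and 2 fell in OE against control (median 0.35), and 8 fell and none rose in OE + EGCG against OE (median -0.52). Mat2a, which makes the methyl donor S-adenosylmethionine, averaged 11.4 ± 0.195 TPM in OE + EGCG, 22.2 ± 1.3 TPM in OE and 11 ± 0.261 TPM in control. Mat1a, another methionine adenosyltransferase, averaged 4.34 ± 0.332 TPM in OE + EGCG, 7.85 ± 0.117 TPM in OE and 3.53 ± 0.0907 TPM in control. Cbs and Cth, which pass the sulfur of homocysteine on to cysteine with serine as the acceptor, averaged 42.7 ± 2.84 and 4.01 ± 0.37 TPM in OE + EGCG, 70.0 ± 1.22 and 9.47 ± 0.661 TPM in OE, and 36.6 ± 2.57 and 3.22 ± 0.145 TPM in control. The genes that fell in OE were Ahcy (-0.65) and Mtrr (-0.27), named after their values were seen. The count of 2 was 1 without control replicate 2 and without OE replicate 2 or 3. Against control, the calls of genes higher in OE + EGCG rested on single libraries in both lists. The 4 purine and thymidylate genes and the 3 methionine genes so called became 0 without control replicate 1 or 2 or without OE + EGCG replicate 1. The calls of lower genes did not reach 0 over the libraries left out. In the purine and thymidylate list 1 gene was called lower, Prps2 at -0.28, and that count ranged from 1 to 2. The 2 methionine genes called lower, Ahcy at -0.91 and Srm at -0.35, were named after their values were seen. That count ranged from 1 to 4.

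Atf4, a transcription factor known to drive serine synthesis and mitochondrial folate genes, averaged 111.6 ± 5.94 TPM in OE + EGCG, 174.6 ± 1.91 TPM in OE and 115.8 ± 4.39 TPM in control (SD, n = 3 each). It rose in OE against control (0.59 ± 0.0549 SE; limma, adjusted p = 2.57e-05) and fell in OE + EGCG against OE (-0.64 ± 0.0549 SE; limma, adjusted p = 2.29e-05). The 16 genes of its axis were all tested, and 7 rose, 2 fell and 7 were not called in OE against control (median 0.06). Of all tested genes 38.2% rose and 21.3% fell (median 0.095). The 7 not called were Ddit3 (-0.02), Trib3 (-0.0), Cebpg (-0.08), Chac1 (0.12), Eif2ak3 (-0.04), Eif2ak4 (-0.01) and Nupr1 (-0.20), named after their values were seen. The list's median was -0.04 after median-ratio scaling (7 higher and 5 lower) and -0.05 after quantile normalization (6 and 6). Over nuclear protein-coding genes it was -0.02 (7 and 4), so the list's median had no direction that held. Its target Asns, asparagine synthetase, averaged 100.8 ± 1.91 TPM in OE + EGCG, 116.3 ± 1.55 TPM in OE and 88.3 ± 1.66 TPM in control. Its difference of -0.20 between OE + EGCG and OE was 0.02 after quantile normalization. Aldh18a1, an enzyme of proline synthesis, averaged 23.5 ± 0.711 TPM in OE + EGCG, 31.3 ± 1.59 TPM in OE and 22.5 ± 1.07 TPM in control. Eif2ak2, a kinase that acts upstream of Atf4 translation, averaged 5.13 ± 0.36 TPM in OE + EGCG, 7.25 ± 0.365 TPM in OE and 5.27 ± 0.453 TPM in control. The genes that fell in OE were Cebpb (-0.52) and Pycr1 (-0.29), named after their values were seen. In OE + EGCG against OE 1 rose and 8 fell (median -0.19), and the gene that rose was Eif2ak4 at 0.28, named after its value was seen. The 8 were 5 under median-ratio scaling, after quantile normalization and over nuclear protein-coding genes. In OE + EGCG against control 2 were called higher, Asns (0.19) and Eif2ak4 (0.26), and 4 lower. The lower ones were Cebpb (-0.81), Chac1 (-0.45), Sesn2 (-0.35) and Nupr1 (-0.30), named after their values were seen. Over the alternatives these counts ranged from 0 to 2 higher and from 2 to 5 lower.

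The glycolytic steps next to phosphoglycerate, the substrate of Phgdh, had changes of the opposite sign to the serine chain. Of 5 genes, 4 fell and none rose in OE against control (median -1.41), and 4 rose and none fell in OE + EGCG against OE (median 1.68). Pgk1, which makes phosphoglycerate, averaged 713.7 ± 36.4 TPM in OE + EGCG, 202.1 ± 26.6 TPM in OE and 514.5 ± 48.9 TPM in control (SD, n = 3 each). Pgam1, which carries it on down glycolysis, averaged 236.3 ± 11.7 TPM in OE + EGCG, 73.2 ± 6.36 TPM in OE and 222.3 ± 17.8 TPM in control. The glycolytic enzymes on either side, Gapdh and Eno1, averaged 1449 ± 179 and 695.7 ± 38 TPM in OE + EGCG, 662.4 ± 52.1 and 192.6 ± 23.6 TPM in OE, and 1759 ± 144 and 624.2 ± 13.4 TPM in control. With protein-coding transcripts alone the difference of Gapdh between OE and control was -0.65 in place of -1.41, and that between OE + EGCG and control, not called either way, was 0.24 in place of -0.28. The remaining gene, Bpgm, was not called in either comparison. In OE + EGCG against control 1 of the 5 genes was called higher and 0 lower. This was Pgk1 (0.47 ± 0.107 SE; limma, adjusted p = 0.0196), and the call held in 16 of 20 alternatives.

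**Figure D5:**
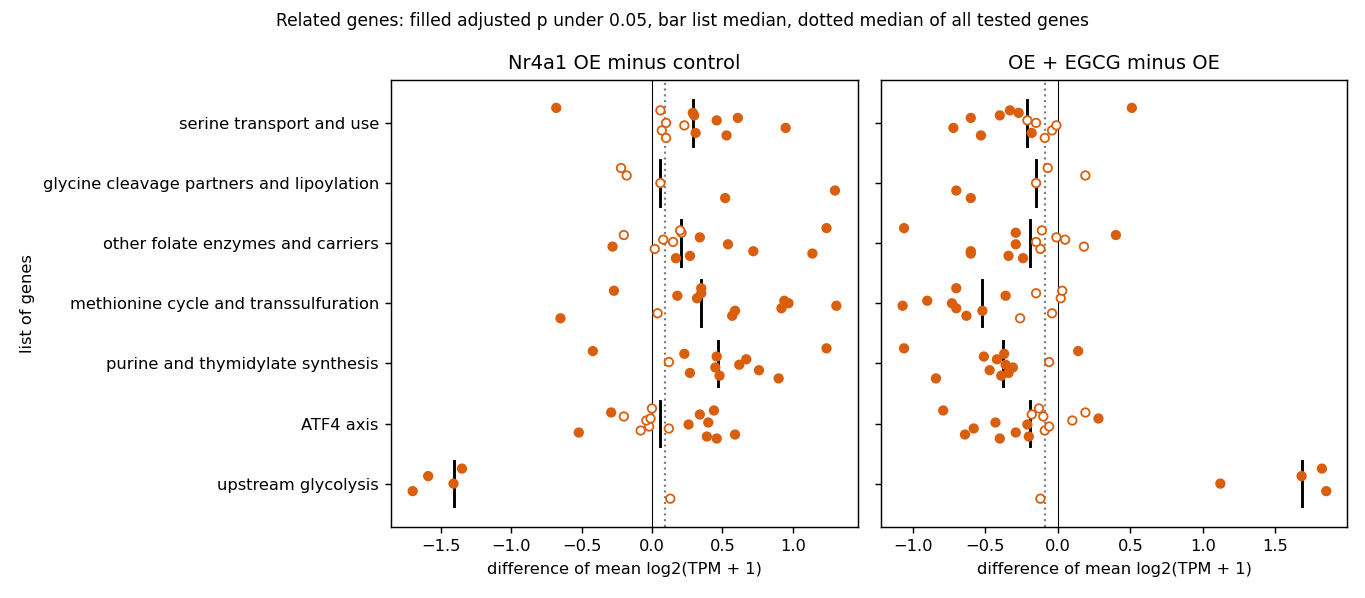
Difference of mean log2(TPM + 1) (x axis) of the tested genes of 7 related lists (y axis) for Nr4a1 OE minus control and for OE + EGCG minus OE; points are genes, filled at an adjusted p under 0.05, the bar is the list's median and the dotted line the median of all tested genes. Most methionine and purine genes lie above 0 for OE minus control and below 0 for OE + EGCG minus OE, and glycolytic genes have medians of -1.41 and 1.68.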

How the data were processed

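Total RNA of MIN6 cells was sequenced from stranded libraries, per the labels' protocols, in 9 libraries. The authors deposited TPM per Ensembl transcript; per the submitters' processing notes they used cutadapt 2.8, STAR 2.7.1a and RSEM 1.2.31 on GRCm39, while the sources used here do not name the annotation release or strand setting. Of 142435 identifiers, 138346 matched GENCODE M21 and were summed to 52408 genes; the rest held 17.993% to 20.572% of TPM.

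The 11950 genes that reached 1 TPM in 3 or more libraries were tested on log2(TPM + 1) with limma 3.58.1 in R 4.3.3, all 9 libraries in a single fit with a mean-variance trend, after a test on simulated data. Promoters were from RefSeq (GRCm38.p6); protein sequences were not used here. All members were named, with up to 4 called genes per related list and 3 genes most like Gcsh. The values of some genes of the related and marker lists are not reported here. The members and lists were chosen with earlier results of these data known. Alternatives covered the pseudocount, filters, scaling, protein-coding transcripts, samples in the fit, the trend, a replicate block and leaving out each library. Figures used Python 3.11.15 with matplotlib 3.10.9.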

Additional observations from a re-analysis of the deposited data

How the results depend on the processing

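The 8 members called higher in OE against control were 8 in every alternative, and the 8 called lower in OE + EGCG against OE were 6 with quantile normalization and 8 in all others. The size of the rises in OE varied, from 0.18 to 0.40 for Mthfd2, 0.37 to 0.61 for Psat1 and 0.36 to 0.59 for Shmt2. For Gcsh it was 1.53 to 1.81. Members called lower in OE against control numbered 0, but 1 without a filter (Gldc, at -0.17) and 1 each with median-ratio scaling, quantile normalization and nuclear protein-coding genes alone (Mthfd1l). Members called higher in OE + EGCG against control numbered 1, but 0 without a filter, with only the 2 groups compared and with the replicate block, 3 over nuclear protein-coding genes (Shmt1, Shmt2 and Mthfd1) and 2 with protein-coding transcripts alone (Mthfd1 and Mthfd1l); leaving out single libraries gave 0 to 2. Of all tested genes, 12395 were called in OE against control without a filter and 4578 at a mean of at least 5 TPM, where the main count was 7106, and 4112 in OE + EGCG against OE at that mean, where it was 6330. In OE + EGCG against control the main count was 2172, with 4775 without a filter, 895 with only the 2 groups compared, 1221 with the replicate block and 735 to 3239 on leaving out single libraries. Signs turned for Shmt1 (-0.01) and Tyms (-0.16) in OE + EGCG against control with protein-coding transcripts alone. There they also turned for the difference of log2 Shmt2 to Shmt1 (0.08) and the uncalled one of Gapdh (0.24). Asns turned in OE + EGCG against OE with quantile normalization (0.02). Other uncalled differences near 0 in OE + EGCG against control also changed sign over the alternatives. Examples are Gcsh (-0.13 to 0.11), Phgdh (-0.11 to 0.03), Psph (-0.06 to 0.07) and Mthfd2 (-0.03 to 0.12), not called in any. The cause of these turns was not tested. Same-numbered libraries deviated together with r from -0.021 to 0.214 and the labels give no pairing, so the numbers are only names. Depth is unknown, so no limit from counting can be given.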

Other observations

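Among 10759 other tested protein-coding genes, those whose log2(TPM + 1) followed Gcsh most closely over the 9 libraries were Emc3, a subunit of a membrane protein insertase of the endoplasmic reticulum (Pearson r = 0.9968), Tbrg1 (r = 0.9957) and Pcna, the sliding clamp of DNA replication (r = 0.9952). Emc3 averaged 14.2 ± 0.366 TPM in OE + EGCG, 21.1 ± 0.104 TPM in OE and 14.3 ± 0.991 TPM in control (SD, n = 3 each), a smaller range than that of Gcsh. Pcna averaged 134.8 ± 4.44 TPM in OE + EGCG, 189.2 ± 1.74 TPM in OE and 134.4 ± 7.55 TPM in control. The 9 points fall into 3 groups of libraries and the genes were picked by r, so these values carry no p. They describe the step between OE and the other groups along with the spread inside groups. In control, Gcsh, Emc3, Tbrg1 and Pcna were all lowest in replicate 1 and highest in replicate 3. The choice by r used these control libraries too, so the shared order is not separate evidence. Psat1, Psph and Mthfd2 had the same order in control, and the other tested members did not.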
